A study of Mus musculus with 7 samples.

Results

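The 6 genes described here, Mcpt8, Gzma, Gzmb, Gzmc, Gzmd and Gzme, encode a mast cell protease and 5 granzymes, and were taken by symbol from the 27998 genes counted in every library. They were chosen by the measured levels of Mcpt8, Gzmd and Gzme in a library of cultured primary myoblasts, where these 3 genes were high. Their levels in that library are therefore given as a description, with no test. All 6 symbols were found, and all 6 had a UMI in at least 1 library.

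Granzymes are serine proteases that cytotoxic T cells and NK cells store in granules with the pore-forming protein perforin, and that cut proteins inside the target cell. Mcpt8, also known as mouse mast cell protease 8, is used as a marker of mouse basophils. In the mouse, Mcpt8, Gzmb to Gzmg, Gzmn and the neutrophil protease gene Ctsg lie side by side in a chymase locus, whereas Gzma lies on another chromosome.

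The study profiled single cells from hindlimb muscle of C56BL/6J mice with droplet 3' RNA sequencing, asking how resting and regenerating muscle stem cells differ. The primary myoblast library held satellite cells of 3-month wild-type mice that had been sorted, plated on collagen and cultured for 4 to 5 passages in HAM's F10 with 2.5 ng per µl bFGF and 10% horse serum. The 2 injured libraries held satellite cells sorted 60 h after injury of TE-EDL muscles with 2 µM notexin, a snake venom toxin that destroys myofibres. The 2 homeostatic libraries held satellite cells sorted from muscle with no injury in their labels, and the 2 total muscle libraries held live cells of dissociated hindlimb muscle of 3-month wild-type mice. The labels give no age for the sorted libraries, and they do not say how many mice each library pooled, so p-values measure only the spread between these libraries. The primary myoblasts are a single library with no replicate.

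Depth was uneven. The primary library held 4429 barcodes and 114382567 UMIs (median 24779 per barcode), the injured libraries 1295 and 2255 barcodes with medians of 7196 and 3111 UMIs, the homeostatic libraries 1629 and 1452 barcodes with medians of 2245 and 2300 UMIs, and the total muscle libraries 1982 and 2432 barcodes with medians of 3055.5 and 3204 UMIs. After cell filters 15206 of 15474 barcodes were kept. The injured libraries shared 253 barcodes with each other, whereas every other pair of libraries shared 1 to 16. The satellite cell marker Pax7 stood at 77.0 CPM, a gene's UMIs scaled to the same total in every library, in primary myoblasts, at 7.08 and 10.1 CPM in injured cells, and at 44.4 and 29.8 CPM in homeostatic cells.

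Of the 6 members, 5 sit in a 180.1 kb stretch of mouse chromosome 14 (GRCm38, GENCODE annotation, minus strand) that holds 9 genes of this protease family. Mcpt8 (ENSMUSG00000022157) lies at chr14:56082166-56085273, Gzme (ENSMUSG00000022156) at chr14:56117626-56120625, Gzmd (ENSMUSG00000059256) at chr14:56129556-56132608, Gzmc (ENSMUSG00000079186) at chr14:56231441-56234656 and Gzmb (ENSMUSG00000015437) at chr14:56258838-56262260. Gzma (ENSMUSG00000023132) lies at chr13:113093825-113100981. The start of Gzme is 35.4 kb and that of Gzmd 47.3 kb from the start of Mcpt8, and between them and Gzmc lie Gzmg, Gzmn and Gzmf.

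The upstream windows of Mcpt8, Gzme and Gzmd are shown because these 3 genes carried the signal in myoblasts, and that of their neighbour Gzmg because it is close in sequence to those of Gzme and Gzmd although Gzmg had only 7 UMIs in the myoblast library. Each is the 250 bases before the RefSeq start, read on the minus strand of GRCm38.p6, at chr14:56085198-56085447 for Mcpt8, chr14:56120626-56120875 for Gzme, chr14:56132594-56132843 for Gzmd and chr14:56159580-56159829 for Gzmg. For Mcpt8 and Gzmd the RefSeq start lies downstream of the GENCODE start, so the last part of each of these windows lies inside the GENCODE gene. That part runs from the GENCODE start at 56085273 to 56085198 for Mcpt8, and from 56132608 to 56132594 for Gzmd. Capitals mark matches on either strand to the E-box CANNTG, to the cAMP response element TGACGTCA and to the TATA-like TTTAAAA, none of which overlap here.
Mcpt8: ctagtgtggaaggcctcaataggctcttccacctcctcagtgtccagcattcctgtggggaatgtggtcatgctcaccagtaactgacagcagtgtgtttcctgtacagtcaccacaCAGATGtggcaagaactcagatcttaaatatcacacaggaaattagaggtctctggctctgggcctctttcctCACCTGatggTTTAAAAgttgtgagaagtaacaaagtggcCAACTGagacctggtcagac
Gzme: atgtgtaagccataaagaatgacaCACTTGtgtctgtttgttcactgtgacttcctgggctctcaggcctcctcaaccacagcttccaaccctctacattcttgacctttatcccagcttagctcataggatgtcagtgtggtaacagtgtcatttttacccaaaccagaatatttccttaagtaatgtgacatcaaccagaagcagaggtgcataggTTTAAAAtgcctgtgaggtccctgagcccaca
Gzmd: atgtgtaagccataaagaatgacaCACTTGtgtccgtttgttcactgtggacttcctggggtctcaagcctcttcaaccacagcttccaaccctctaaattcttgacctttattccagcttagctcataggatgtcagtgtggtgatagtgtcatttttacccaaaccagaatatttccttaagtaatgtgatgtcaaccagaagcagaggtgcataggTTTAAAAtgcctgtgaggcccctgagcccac
Gzmg: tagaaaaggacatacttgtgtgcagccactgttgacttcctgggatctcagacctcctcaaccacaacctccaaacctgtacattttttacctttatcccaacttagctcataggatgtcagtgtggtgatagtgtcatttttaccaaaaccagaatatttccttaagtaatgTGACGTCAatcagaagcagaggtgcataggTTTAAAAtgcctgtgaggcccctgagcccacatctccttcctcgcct

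The Gzme and Gzmd windows were 95.6% identical over 249 aligned bases, those of Gzme and Gzmg 91.0%, and those of Gzmd and Gzmg 89.3%. All 4 windows held TTTAAAA, which starts at position -50 from the RefSeq start in Mcpt8, -32 in Gzme, -31 in Gzmd and -47 in Gzmg, as did Gzmf, whereas Gzma, Gzmb and Gzmc held none. TTTAAAA was present in 8.10% of the 32851 RefSeq windows of this length. TGACGTCA had 1 match each in Gzmc, Gzmf and Gzmg and none in Mcpt8, Gzme, Gzmd, Gzmb or Gzma, against 1.55% of all windows with a match. The E-box, the class of site that myogenic basic helix-loop-helix factors bind, matched 3 times in Mcpt8 and in Gzma, 2 times in Gzmb and 1 time each in Gzmc, Gzmd, Gzme and Gzmf, with none in Gzmg, while 66.2% of all windows held it. The RUNX motif TGTGGT matched 1 time in Gzma and 2 times in each of the other 7 windows, against 14% of all windows with a match. These matches describe letters in a window and say nothing on whether a factor binds there. In Mcpt8 the TATA-like match, and the nearest E-box match on either side of it, are upstream of the RefSeq start only. By the GENCODE start they lie inside the gene, so for Mcpt8 they are not shown to be upstream sites.

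Sequence likeness raises the question whether reads could be counted for the wrong gene. Within the last 400 transcript bases, where 3' reads fall, the tails of Gzme and Gzmd were 95.8% identical over 381 aligned bases, and that of Mcpt8 was 57.4 to 62.6% identical to those of the granzymes compared with it. Every one of the 303 possible reads of 98 bases from each of these tails was still unique to its gene among all annotated transcripts. A read with sequencing errors could be placed on the wrong one of Gzme and Gzmd, and how the authors' counting treated such reads was not tested.

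Mcpt8 was among the abundant transcripts of cultured myoblasts. It had 59946 UMIs there, or 527 CPM (95% Poisson interval 522 to 531), which ranked it 275th by count among the 18208 genes with a UMI in the library. It was detected in 92.5% of 4404 kept cells at a median depth of 24800 UMIs, but also in 88.9% of 18 glial-like cells of that library, a type not known to make it, at a median depth of 41560 UMIs. In these glial-like cells its level was 87.5 CPM (67.5 to 112), with 26 of 65 UMIs in a single cell, so the share of cells with a UMI is not read as the share that expressed the gene. A UMI marks a captured molecule whatever the transcript's length, so CPM values are set side by side between genes with no length correction, and all intervals and floors cover counting error only.

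The Mcpt8 transcript was scarce or undetected in the other 6 libraries. Mcpt8 had 66 and 47 UMIs in the injured libraries, which is 7.30 CPM (5.65 to 9.29) and 6.67 CPM (4.90 to 8.86). It had 0 UMIs in both homeostatic and both total muscle libraries. There 3 UMIs, taken as the floor for a count of 0, would be 0.833 and 0.913 CPM in homeostatic libraries and 0.387 and 0.306 CPM in total muscle libraries. The injured libraries thus lay apart from the homeostatic ones, and all of them far below the primary library.

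Gzme and Gzmd were also highest in primary myoblasts. Gzme had 25352 UMIs in primary myoblasts, 223 CPM (220 to 226), in 82.1% of cells. It had 2 and 1 UMIs in the injured libraries and 0 in the remaining 4. Gzmd had 11637 UMIs in primary myoblasts, 102 CPM (100.4 to 104), in 57.8% of cells, and 0 in all other libraries. Per 100 Mcpt8 UMIs, myoblasts held 42.3 Gzme and 19.4 Gzmd UMIs. Injured cells held 3.03 (0.360 to 11.4) and 2.13 (0.0528 to 12.5) Gzme UMIs per 100 Mcpt8 UMIs, and no Gzmd, with upper bounds of 5.75 and 8.17.

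Gzmc, Gzmb and Gzma had another distribution. Gzmc had 243 UMIs in primary myoblasts, 2.14 CPM (1.88 to 2.42), in 3.50% of cells, and 1 UMI in each total muscle library. Gzmb had 27 UMIs in primary myoblasts, 0.237 CPM (0.156 to 0.345). In the total muscle libraries it had 41 UMIs, 5.29 CPM (3.79 to 7.17), and 34 UMIs, 3.47 CPM (2.41 to 4.85). Gzma had 83 UMIs in each total muscle library, 10.7 CPM (8.52 to 13.3) and 8.48 CPM (6.75 to 10.5), and 0 in the other 5. The order of the members in primary myoblasts was therefore Mcpt8, Gzme, Gzmd, Gzmc and Gzmb with no overlap between neighbouring intervals, and Gzma below the floor of 0.0264 CPM. In total muscle Gzma came before Gzmb.

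**Figure D1:**
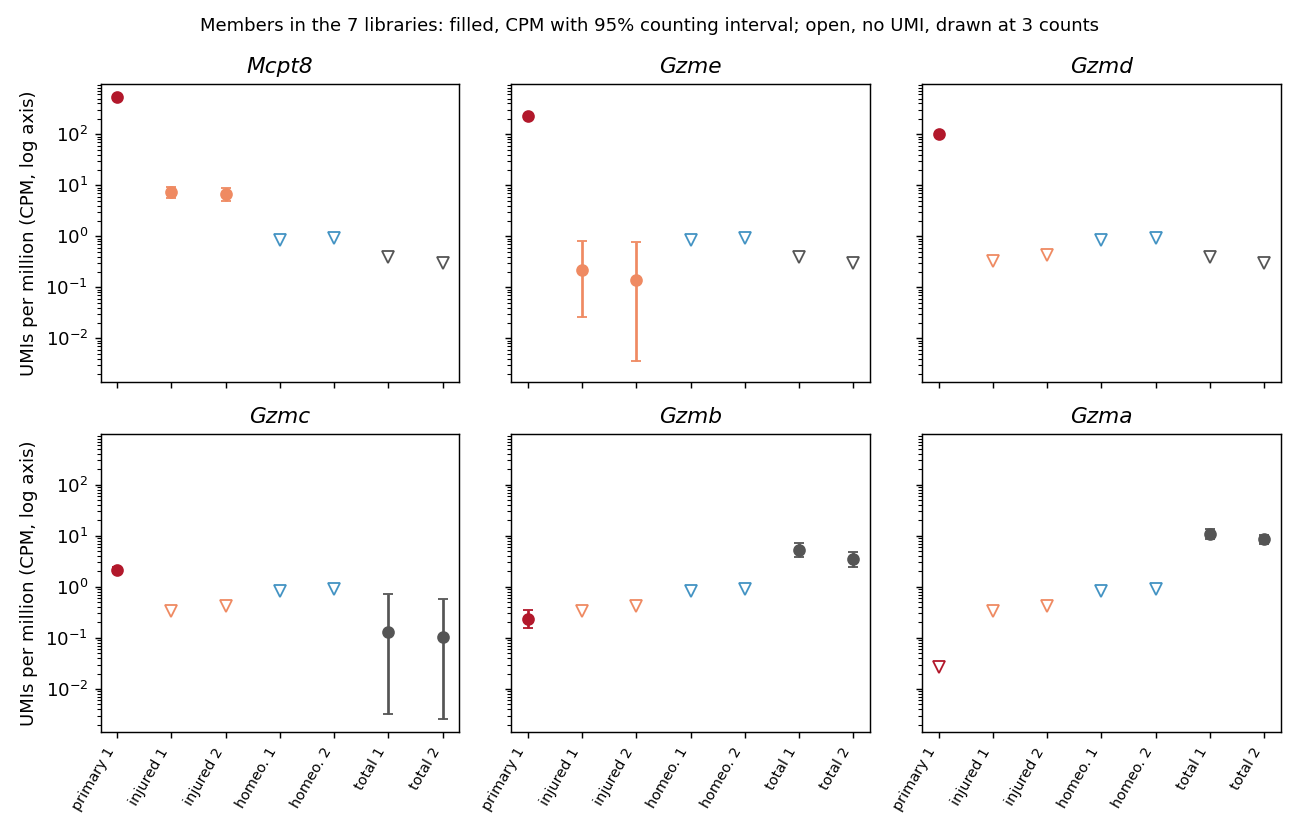
Level of each member in each of the 7 libraries, in CPM on a log axis; filled points carry 95% counting intervals and open points mark libraries with no UMI, drawn at 3 counts. Mcpt8, Gzme and Gzmd peak in primary myoblasts at 527, 223 and 102 CPM, whereas Gzma and Gzmb peak in total muscle at up to 10.7 and 5.29 CPM.

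Along the chromosome, the high members did not form an unbroken block. Ctsg, the neutrophil cathepsin G gene that lies between Mcpt8 and Gzme, had 3 UMIs in the myoblast library. On the far side of Gzmd, Gzmg had 7, Gzmn 5 and Gzmf 0 UMIs, before Gzmc with 243. On the other side of Mcpt8, the mast cell chymase genes Mcpt4, Mcpt9 and Cma1 had 1, 1 and 18 UMIs. Gzmm, a granzyme gene on chromosome 10, had 134 UMIs.

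**Figure D2:**
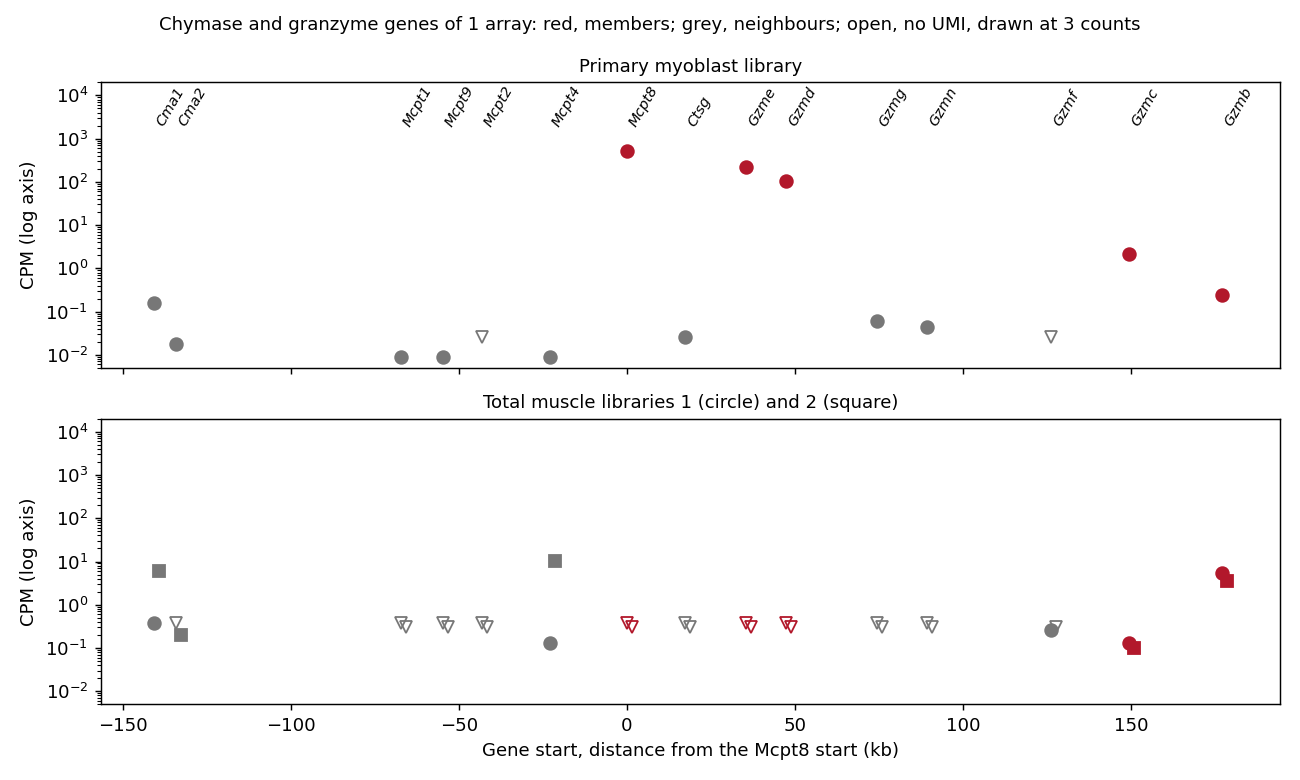
Level in CPM (log axis) against the distance in kb of each gene's start from that of Mcpt8, with members in red, neighbours in grey and open points for genes with no UMI, drawn at 3 counts. In primary myoblasts Mcpt8, Gzme at 35.4 kb and Gzmd at 47.3 kb stand above neighbours such as Ctsg at 17.3 kb and Gzmg at 74.3 kb.

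Of 14 granule and granzyme handling genes, 2 had no UMI in the myoblast library. The list summed to 681 CPM in primary myoblasts, against 1413 and 1396 CPM in total muscle. Most of that sum in primary myoblasts came from broadly expressed genes, Lamp1 at 356 CPM, Serpinb6a at 229 CPM, M6pr at 70.3 CPM and Igf2r at 20.1 CPM, for a lysosomal membrane protein, a protease inhibitor and a pair of sorting receptors. In total muscle Lamp1 stood at 406 and 400.4 CPM and M6pr at 71.4 and 73.6 CPM. Prf1, which encodes perforin, and Nkg7, a granule membrane protein gene, had 0 UMIs in primary myoblasts. Srgn, the gene of the proteoglycan that packs granzymes, had 5 UMIs or 0.0439 CPM there, against 434 and 427 CPM in total muscle. Ctsc, the gene of the protease that removes the granzyme propeptide, was at 1.59 CPM in primary myoblasts and at 78.8 and 59.9 CPM in total muscle. Serpinb9, whose product inhibits granzyme B, was at 1.56 CPM in primary myoblasts and at 24.6 and 31.5 CPM in total muscle.

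Markers of the blood cells that usually make these proteases were likewise low. Of 11 basophil or mast cell markers, Cpa3, Fcer1a, Kit, Il4 and Tpsb2 had no UMI in the myoblast library, and 2053 of the list's 2088 UMIs came from the transcription factor gene Gata2. The list summed to 18.3 CPM in primary myoblasts, 6.97 and 5.25 CPM in injured, 3.89 and 3.05 CPM in homeostatic and 24.4 and 51.5 CPM in total muscle libraries. Of 5 T cell markers found in the files, Cd3d and Cd3e had no UMI in the myoblast library and the list summed to 3.28 CPM there, against 175 and 162 CPM in total muscle. Of 6 NK markers, Ncr1 and Nkg7 had none, and the list summed to 0.615 CPM, against 25.1 and 30.03 CPM in total muscle.

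Within the myoblast library the 3 high members were found together in the same cells. With each cell thinned to 10000 UMIs, 4251 cells remained, and Mcpt8 averaged 5.31 UMIs per cell with a median of 3, a 90th percentile of 13 and a maximum of 88. Of these cells, 32.8% held Mcpt8, Gzme and Gzmd, 26.9% held Mcpt8 and Gzme only, 17.8% held Mcpt8 alone and 10.0% held none of the 3. Gene by gene, 82.8% held Mcpt8, 65.8% Gzme and 40.5% Gzmd, so part of the joint presence follows from how common each was. Gzmd without either of the others was found in 45 cells, or 1.06%. The variance of Mcpt8 was 8.60 times its mean, that of Gzme 4.58 times and that of Gzmd 4.10 times. The richest 10% of cells held 39.5% of Mcpt8, 42.8% of Gzme and 56.1% of Gzmd UMIs.

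Gzme and Gzmd were higher in cells with more Mcpt8 across the whole range. Cells with no Mcpt8 UMI averaged 0.551 ± 0.968 Gzme and 0.190 ± 0.606 Gzmd UMIs (SD, n = 732 cells). Cells with 11 to 20 Mcpt8 UMIs averaged 4.91 Gzme and 2.34 Gzmd UMIs (n = 479 cells). Cells with 21 or more averaged 9.13 ± 6.98 Gzme and 5.18 ± 5.14 Gzmd UMIs (SD, n = 162 cells). Each of the 6 groups of Mcpt8 had higher means than the group before it, while the SD over cells exceeded the mean in the lowest 3 groups for Gzme and in the lowest 5 for Gzmd.

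**Figure D3:**
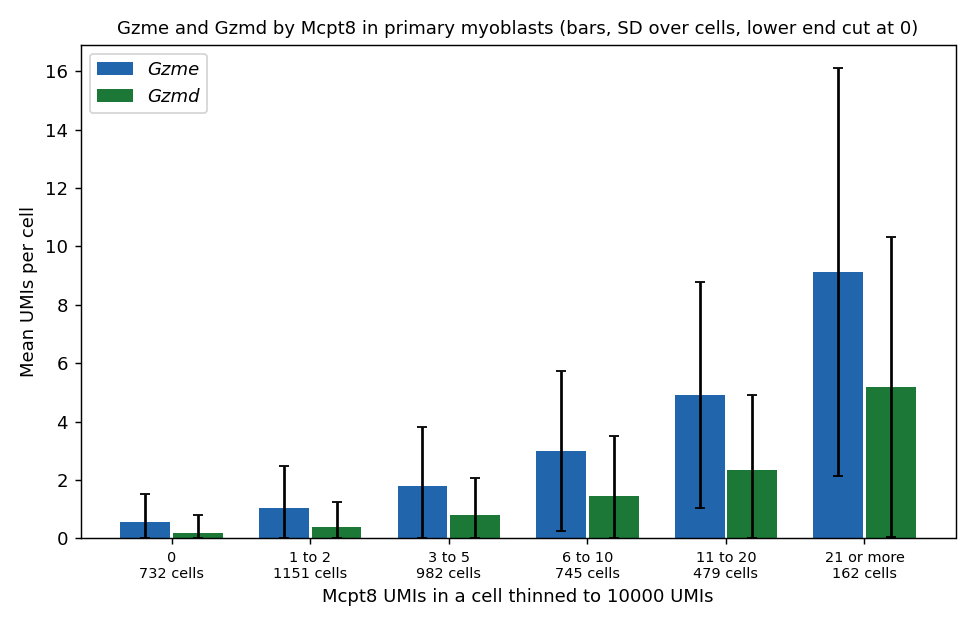
Mean UMIs per cell of Gzme and Gzmd in primary myoblasts grouped by their Mcpt8 UMIs, all cells thinned to 10000 UMIs; bars are means and error bars the SD over cells, with the lower end drawn no lower than 0. Means run from 0.551 Gzme and 0.190 Gzmd UMIs in cells with no Mcpt8 to 9.13 and 5.18 UMIs in cells with 21 or more.

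Across the 4251 thinned cells, Pearson's r of UMIs on a log scale was 0.60 between Mcpt8 and Gzme. It was 0.54 between Gzmd and Gzme and 0.51 between Mcpt8 and Gzmd. These cells share a library and a fixed depth, and the values are a description. When all genes were ranked by their correlation over the 4404 cells on a log scale, the 2 genes most like Mcpt8 were Gzme (r = 0.72) and Gzmd (0.61), followed by Spp1 (0.51), Timp1 (0.46) and S100a6 (0.38). The genes most like Gzme were Mcpt8 (0.72), Gzmd (0.66), Spp1 (0.47), Timp1 (0.44) and Sparc (0.36). Those most like Gzmd were Gzme (0.66), Mcpt8 (0.61), Timp1 (0.35), Spp1 (0.32) and Ezh2 (0.26). Spp1 encodes the secreted protein osteopontin and Timp1 an inhibitor of matrix metalloproteases.

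The rare Gzmc transcripts were found in cells rich in the other members. The 88 cells with a Gzmc UMI averaged 10.95 ± 8.30 Mcpt8 UMIs, against 5.19 ± 6.67 in the 4163 cells without. Gzme averaged 6.28 UMIs in the cells with Gzmc and 2.13 in those without, and Gzmd averaged 2.81 and 0.998 UMIs. Gzmb was seen in 13 thinned cells, which averaged 14.1 ± 20.6 Mcpt8 UMIs, against 5.28 ± 6.66 in the rest. The SDs are over cells, and the Gzmb cells varied too widely to set them apart.

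The high members were lower in myoblasts with more Myog, the gene of the differentiation factor myogenin. Myog-high cells were those with at least 5 Myog UMIs after thinning (484 cells), Myog-low cells those with 0 (2336 cells), and 1431 cells lay between. There were 27 cells with 4 and 27 with 5 Myog UMIs, and 153 cells under 10000 UMIs were left out. Median depth before thinning was 24770 UMIs in Myog-high and 25320 in Myog-low cells.

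Mcpt8 stood at 225 CPM in Myog-high and 583 CPM in Myog-low cells, a ratio of 0.386 (counting interval 0.363 to 0.411). It was detected in 54.8% of Myog-high and 86.3% of Myog-low cells after thinning, with medians of 1 and 4 UMIs. Gzme stood at 78.1 CPM in Myog-high and 245 CPM in Myog-low cells, a ratio of 0.319 (0.287 to 0.354). It was detected in 34.1% of Myog-high and 70.0% of Myog-low cells. Gzmd stood at 41.5 CPM in Myog-high and 115 CPM in Myog-low cells, a ratio of 0.362 (0.312 to 0.418), and was detected in 20.7% of Myog-high and 43.6% of Myog-low cells. With 1 library there is no test of these differences between cells.

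The scarce members had too few counts for a narrow ratio. Gzmc had 4 UMIs in Myog-high and 76 in Myog-low cells, a ratio of 0.254 (0.0675 to 0.678). Gzmb had 0 UMIs in Myog-high and 10 in Myog-low cells, and a difference was not detectable at this depth. Gzma had none in either. For comparison, the ratio of Myog-high to Myog-low cells was 0.357 for Pax7, 0.368 for the proliferation marker Mki67, 0.249 for Spp1 and 0.265 for Timp1.

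The levels were lowest where Myog was highest. Mcpt8 stood at 583, 554, 532 and 481 CPM in cells with 0, 1, 2 to 4 and 5 to 9 Myog UMIs, and at 199 and 132 CPM in cells with 10 to 49 and 50 or more. Gzme stood at 245, 241, 213, 141, 82.4 and 46.5 CPM over the same 6 steps. Gzmd stood at 115, 111, 94.0, 89.5, 36.4 and 24.4 CPM. All 3 members were lowest in the 213 cells with 50 or more Myog UMIs, where Mcpt8 had an interval of 117 to 149 CPM and Gzme of 37.8 to 56.6 CPM.

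**Figure D4:**
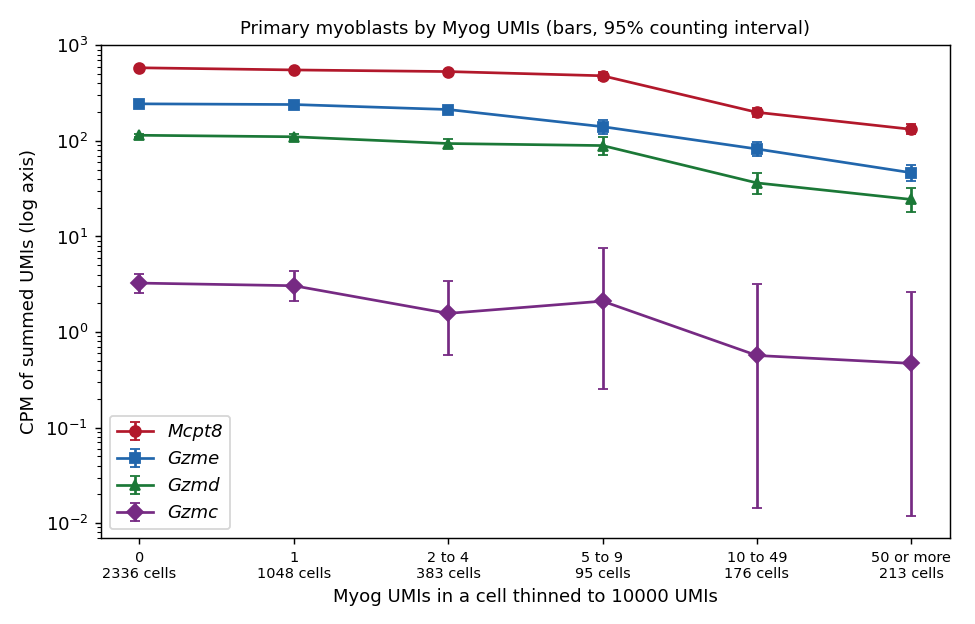
Levels of Mcpt8, Gzme, Gzmd and Gzmc (CPM of summed UMIs, log axis) in primary myoblasts grouped by Myog UMIs after thinning to 10000 UMIs, with 95% counting intervals. Mcpt8 stands between 583 and 481 CPM up to 9 Myog UMIs and at 132 CPM in cells with 50 or more.

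Within the Myog-low cells, the summed levels of Mcpt8 and Gzmd were slightly higher where the sum of mitotic genes was higher. In the upper tertile of that sum (731 cells) against the lowest (784 cells), Mcpt8 was at 636 against 543 CPM, a ratio of 1.17 (1.12 to 1.22). Gzmd was at 135 against 103 CPM, a ratio of 1.31 (1.20 to 1.44). Gzme was at 244 against 241 CPM, a ratio of 1.01 (0.948 to 1.08). The interval of Gzme held 1. Gzmc had 17 UMIs or 2.33 CPM in the upper tertile against 37 UMIs or 4.72 CPM in the lowest, a ratio of 0.493 (0.260 to 0.897). Single cells held 5 of the 17 and 7 of the 37 UMIs. None of these intervals covers spread over cells. Over the Myog-low cells the variance was 8.47 times the mean for Mcpt8, 4.26 times for Gzmd and 2.28 times for Gzmc. The differences were not tested against that spread, so a direction opposite to Mcpt8 and Gzmd is not shown for Gzmc. Myog-low cells with 2 or more Pax7 UMIs (512 cells) were set against those with none (1092 cells). The ratios were 1.16 (1.11 to 1.21) for Mcpt8, 1.12 (1.01 to 1.23) for Gzmd and 1.10 (1.03 to 1.18) for Gzme. For Gzmc the ratio was 1.28 (0.627 to 2.52).

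Levels by cluster of the myoblast library are a description, since the members were among the genes clustered. Mcpt8 stood at 772 CPM in a cluster of 1669 myoblasts with 75.1 CPM of Myog. It stood at 419 CPM in another of 2147 with 41.0 CPM of Myog, so of these 2 clusters, both led by Spp1, the one with more Myog also had more Mcpt8. Mcpt8 stood at 351 CPM in a cluster of 360 cells led by Myog, with 3547 CPM of Myog, and at 62.2 CPM in 210 cells led by Myl4, Tnni1 and Myog, with 5423 CPM. The 18 glial-like cells, with 87.5 CPM of Mcpt8, held Gzme at 39.0 CPM (26.1 to 56.1) and Gzmd at 5.38 CPM (1.47 to 13.8). A single one of them held 26 of their 65 Mcpt8 and 15 of their 29 Gzme UMIs, and without it, a choice made after seeing the data, they stood at 56.1 CPM (39.9 to 76.6) for Mcpt8, 20.1 CPM for Gzme, with an upper bound of 33.8 CPM, and 5.75 CPM (1.57 to 14.7) for Gzmd. In the cluster led by Myl4, 61.9% of cells held Mcpt8 at a median depth of 27300 UMIs, Gzme was at 23.0 CPM and Gzmd at 13.3 CPM. For Mcpt8 and Gzme these levels were below those of the glial-like cells with that cell and within their intervals without it, so expression above the library's background was not shown there.

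Among sorted satellite cells, Mcpt8 was found after injury and not in homeostasis. In myogenic-like cells it had 66 UMIs in 1206 cells and 47 UMIs in 2134 cells of the injured libraries, which is 7.41 CPM (5.73 to 9.43) and 6.79 CPM (4.99 to 9.02). It had 0 UMIs in 1502 and 0 in 1377 cells of the homeostatic libraries, whose floors of 3 counts are 0.869 and 0.948 CPM. The groups did not overlap, but the share of all genes without overlap is not given here, so this is a description.

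Mcpt8 was at least 15.7-fold higher in injured than in homeostatic cells, with 3 counts over the homeostatic group as the floor (edgeR quasi-likelihood test, Benjamini-Hochberg adjusted p = 4.47e-06, n = 2 libraries each, higher in 2 of 2). The bound leaves out counting error, and 3 counts lie below the upper end of the 95% interval of a count of 0. The call is read against a large background, since 76% of the 10669 genes tested were called in this comparison and 38.6% were called higher. With no count in homeostatic cells, Mcpt8 passed the count filter only through the injured libraries, so it could be called higher but not lower. The call held in all 14 alternatives run, with adjusted p between 1.39e-18 and 1.52e-05. The bound follows the homeostatic depth and was 7.53-fold without homeostatic replicate 1 and 8.21-fold without homeostatic replicate 2. With GC-rich barcodes only it was 10.3-fold, and without barcodes found in more than 1 library it was 13.6-fold on 82 UMIs. In injured library 1, myogenic-like cells with such shared barcodes held 27 of the 66 Mcpt8 UMIs, at 11.55 CPM (7.61 to 16.8). The rest stood at 5.94 CPM (4.22 to 8.12). In injured library 2 the levels were 7.85 CPM (2.14 to 20.1) and 6.70 CPM (4.85 to 9.025). The injured libraries shared 253 barcodes, and whether they are independent as n = 2 was not tested.

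The injured signal was thinly spread. Of the injured cells, 56 and 36 held a single Mcpt8 UMI, 4 and 4 held more, and no cell held over 4. Mcpt8 was detected in 4.98% and 1.87% of myogenic-like cells, at median depths of 7344 and 3164 UMIs. The non-myogenic cells of the same libraries held 0 Mcpt8 UMIs in 37 and 65 cells, where 3 UMIs would be 23.1 and 24.3 CPM, so a level like that of the myogenic-like cells was not detectable there.

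By differentiation state, Mcpt8 in injured cells stood at 5.13 CPM (2.21 to 10.1) and 4.87 CPM (1.79 to 10.6) in cells with a Myog UMI. It stood at 7.90 CPM (6.00 to 10.2) and 7.20 CPM (5.17 to 9.76) in cells without. The intervals overlapped in both libraries, so no difference was detectable at this depth. Basophil or mast cell markers in the injured libraries summed to 6.97 and 5.25 CPM, with 8 of 11 at 0 in each, Cpa3, Ms4a2 and Fcer1a among them, and with 60 of 63 and 34 of 37 UMIs from Gata2. Gzme had 3 UMIs over both injured libraries and 0 in homeostatic cells, and was too low to be tested, while Gzma, Gzmb, Gzmc and Gzmd had none in either group.

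Granule and granzyme handling genes were counted in the same comparison. Of 14, 5 were tested, of which 0 were higher in injured cells, 4 were lower and 1 did not pass, beside 76% of all genes called and 38.6% called higher, with a median log2 fold change of -1.75 beside 0.03 for all genes tested. Srgn fell by 6.01 ± 0.39 on the log2 scale (SE, n = 2 libraries each, edgeR adjusted p = 1.87e-08). Marker lists moved in both directions in the same sums. Of 5 myofibre markers tested, 4 were higher, and the list summed to 254.1 CPM in injured and 21.84 CPM in homeostatic cells. The tenocyte list summed to 90.13 CPM in injured and 20.7 CPM in homeostatic cells, with 1 of 3 tested higher and 2 lower. Of 8 myogenic markers 7 were lower, summing over the 8 to 1672 CPM in injured and 8188 CPM in homeostatic cells. All 4 erythroid markers were lower, summing to 2.71 CPM in injured and 2177 CPM in homeostatic cells, with Alas2 at 0 in injured cells. All 4 mural markers tested, of 6, were lower, summing over the 6 to 32.8 CPM in injured and 206.9 CPM in homeostatic cells, with Pdgfrb at 0 in injured cells. All 3 fibro-adipogenic markers tested, of 7, were lower, summing over the 7 to 23.3 CPM in injured and 282.5 CPM in homeostatic cells. Of 6 macrophage or monocyte markers 2 were tested and 1 was lower, with sums of 5.54 CPM in injured and 7.35 CPM in homeostatic cells. The part of these markers in the fall of Srgn and the other genes was not tested. Igf2r, which encodes a sorting receptor that also takes up granzyme B, fell by 2.57 and Serpinb6a, an inhibitor gene, by 1.75. Lamp1 fell by 0.32 (edgeR adjusted p = 0.047), a call that DESeq2 did not make (adjusted p = 0.159).

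Of 16 genes for transcription factors and cytokine signals known to regulate granzymes or basophil genes, 8 were tested, of which 3 were higher in injured cells, beside 38.6% of all genes, and 5 were lower, with a median of -2.38. Runx2 rose by 2.91 and Id2 by 1.34 on the log2 scale, whereas Runx1 fell by 2.67 and Stat5a by 4.76. Gata2, singled out after its values were seen, rose by 2.56 ± 0.48 (SE, n = 2 libraries each, edgeR adjusted p = 0.00033) to 5.82 CPM in injured cells, against 1.19 CPM in homeostatic cells. Of 12 related protease genes 1 was tested, Gzmm, which fell by 3.02.

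In uninjured total muscle, Gzma and Gzmb were highest in a small set of lymphocytes. Cells with a UMI of Cd3d, Cd3e or Cd3g were taken as T cells and cells with Ncr1 or Klrb1c and no Cd3 gene as NK cells, both without the B cell genes Cd79a, Cd79b and Ms4a1, which gave 219 and 258 T cells and 0 and 3 NK cells. These gates use none of the members. Mcpt8, Gzmd and Gzme had 0 UMIs in the gated T cells, where 3 UMIs would be 4.31 and 3.30 CPM, so a level as low as that of Gzmc in myoblasts would not have been detectable.

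Gzma had 53 and 74 UMIs in the gated lymphocytes, against 30 and 9 UMIs in all other cells of the same libraries. As a level this is 76.1 CPM (57.0 to 99.6) and 40.7 CPM (28.7 to 56.1) in T-gated cells, against 4.25 CPM (2.87 to 6.07) and 1.01 CPM (0.464 to 1.93) in other cells. In the second library 37 of the 74 UMIs came from the 3 NK-gated cells. Gated cells were above other cells in both libraries, with a log2 fold change of 5.08 ± 0.43 (SE, n = 2 sums each, edgeR adjusted p = 0.000107). Gzma passed the count filter through the gated sums, where it was high. T-like cells by cluster held 70 and 79 Gzma UMIs, more than the gated cells, so the other cells included T-like cells that missed the gate.

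Gzmb had 30 and 31 UMIs in the gated lymphocytes, against 11 and 3 UMIs in other cells. In T-gated cells it stood at 43.1 CPM (29.1 to 61.5) and 31.9 CPM (21.4 to 45.8), against 1.56 CPM (0.778 to 2.79) and 0.338 CPM (0.0697 to 0.988) in other cells. The log2 fold change was 5.48 ± 0.50 (SE, n = 2 sums each, edgeR adjusted p = 0.000149). Like Gzma, Gzmb passed the count filter through the gated sums, where it was high. Of 11695 genes tested, 40.5% were called and 18.5% were called higher in gated cells, with a median log2 fold change of -0.07. Both calls held in all 11 alternatives, and the size of the change followed the other cells: without those of library 1 the sums differed 77.8-fold for Gzma and 112-fold for Gzmb, and without those of library 2 they differed 18.6-fold and 24.3-fold, against 32.2-fold and 43.1-fold with all 4 sums. With T- or NK-like clusters in place of gates they differed 107-fold and 102-fold.

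Few cells carried these transcripts. Gzma was detected in 22 of 1963 cells of the first total muscle library and 17 of 2420 of the second, and the 5 richest cells held 48 of 83 and 62 of 83 of its UMIs. Gzmb was detected in 18 and 14 cells, and the 5 richest held 25 of 41 and 25 of 34 UMIs. The richest cells held 13 and 20 Gzma UMIs and 7 and 12 Gzmb UMIs.

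By cell class, T-like cells held Gzma at 109 CPM (84.7 to 137) and 115 CPM (90.6 to 143), in 7.34% of 218 cells and 5.78% of 225 cells at median depths of 2620 and 2663 UMIs. Fibro-adipogenic-like cells, which are not known to make granzymes, held it in 0 of 543 and 3 of 687 cells at median depths of 5054 and 5076 UMIs. Endothelial-like cells held it in 2 of 397 and 0 of 501 cells and myogenic-like cells in none. In the second library the class held the 3 NK-gated cells with 37 of its 79 Gzma UMIs, and without them, a choice made after seeing the data, it stood at 61.5 CPM (44.3 to 83.1) for Gzma and 42.5 CPM for Gzmb. The first library had no NK-gated cell. T-like cells held Gzmb at 55.9 CPM (39.1 to 77.3) and 44.9 CPM (30.5 to 63.8).

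**Figure D5:**
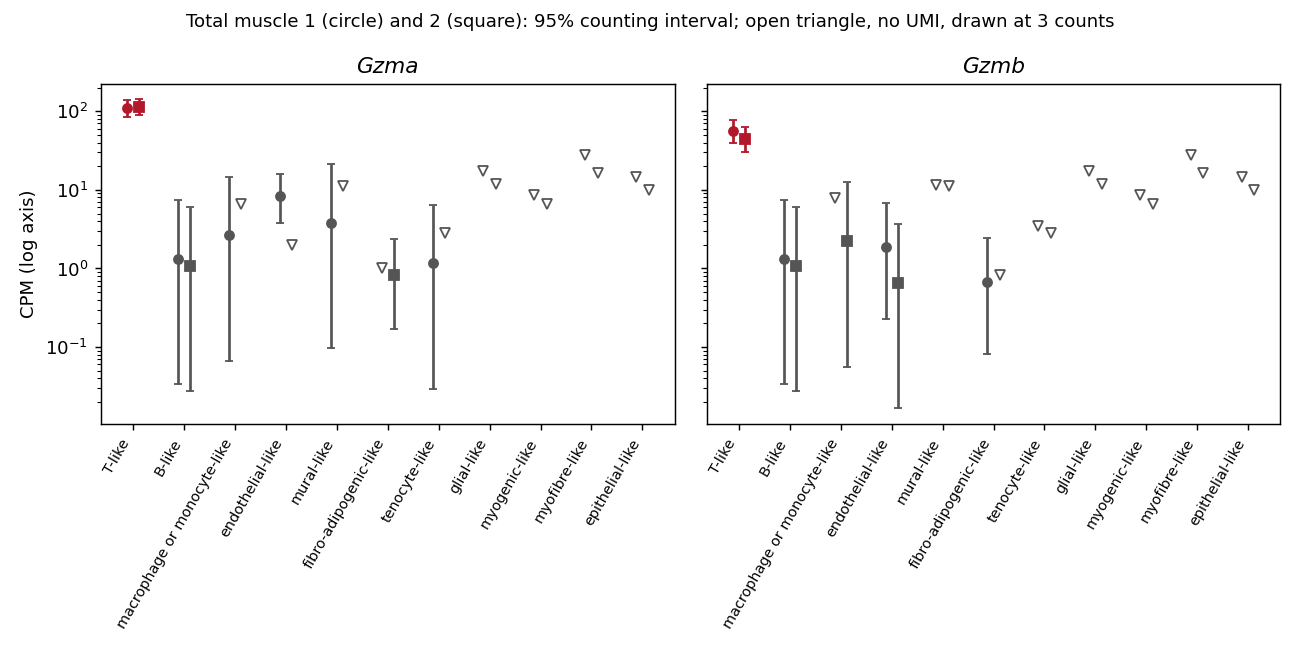
Gzma and Gzmb in the cell classes of the 2 total muscle libraries, in CPM on a log axis with 95% counting intervals; open triangles mark classes with no UMI, drawn at 3 counts. T-like cells stand at 109 and 115 CPM for Gzma and at 55.9 and 44.9 CPM for Gzmb, above every other class plotted.

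Within the T-like class, other lymphocyte genes were counted in the cells with and without a Gzma UMI. The class was made by clustering on all genes, so this is a description. The NK marker Ncr1 was detected in 2 of 13 Gzma-positive cells of the second library, against 0 of 212 Gzma-negative cells. Cd8b1, a chain of the CD8 coreceptor, was detected in 10 of 16 Gzma-positive against 44 of 202 Gzma-negative cells of the first library, and in 6 of 13 against 63 of 212 of the second. Cd4 was detected in 0 of 16 and 0 of 13 Gzma-positive cells, against 27 of 202 and 20 of 212 Gzma-negative cells. Klrd1, which encodes the CD94 receptor of NK and CD8 T cells, was detected in 11 of 16 and 6 of 13 Gzma-positive cells, against 24 of 202 and 38 of 212 Gzma-negative cells. The chemokine gene Ccl5 was detected in 8 of 16 and 8 of 13 Gzma-positive cells, against 14 of 202 and 15 of 212 Gzma-negative cells. Gzmb itself was detected in 7 of 16 and 2 of 13 Gzma-positive cells, against 7 of 202 and 9 of 212 Gzma-negative cells. Prf1 was scarce in the whole class, in 0 of 16 and 1 of 13 Gzma-positive cells and in 3 of 202 and 2 of 212 Gzma-negative cells. These are counts of cells with no test over them.

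Granule genes were counted in the gated lymphocytes too. Of 14 genes 12 were tested, of which 7 were higher in gated lymphocytes, beside 18.5% of all genes, 2 were lower and 3 did not pass, beside 40.5% of all genes called, with a median log2 fold change of 0.90. Srgn rose by 1.34 and M6pr, the gene of the mannose-6-phosphate receptor that sorts lysosomal enzymes, by 0.46 (edgeR adjusted p = 0.0328), the last a call lost without TMM scaling (adjusted p = 0.0773) and in DESeq2 (adjusted p = 0.121). Lamp1 fell by 0.91 and Serpinb6a by 1.40. Nkg7, singled out after its values were seen, rose by 6.59 ± 0.35 (SE, n = 2 sums each, edgeR adjusted p = 1.66e-05).

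Of 16 regulators 15 were tested, of which 9 were higher in gated lymphocytes, beside 18.5% of all genes, 4 were lower and 2 did not pass, beside 40.5% called, with a median of 1.76. Id2 rose by 1.22, Il2rg, the shared cytokine receptor chain gene, by 1.76 and Runx3, a factor of CD8 T cells, by 3.67, whereas Runx1 fell by 1.28. Il2rb, the IL-2 and IL-15 receptor chain gene, was singled out after its values were seen and rose by 6.59 ± 0.21 (SE, n = 2 sums each, edgeR adjusted p = 3.9e-06). The related protease gene Gzmm had a log2 fold change of 0.73 and did not pass (edgeR adjusted p = 0.378).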

How the data were processed

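The 7 droplet libraries were made with a 10x Genomics 3' kit, per the labels. The authors deposited raw UMI counts per gene and barcode, with no normalization. Cell Ranger 2.2.0, bcl2fastq 2.17.1 and Seurat 2.3.4 are named with the mm10 build in the submitters' processing notes, which give no roles. The members and gene lists were chosen with earlier results of these data known.

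Barcodes with at least 200 genes and at most 10% mitochondrial UMIs were kept. Scrublet marked 61 of 15267 (0.4%), too few to have worked as a doublet filter, and these were left out. Cells were clustered in scanpy 1.11.5 (2000 variable genes, 30 components, Leiden resolution 1.0, 24 clusters) and called X-like from the marker lists, by thresholds (log2 above 0.5, share of at least 0.02) set after the data were seen. T or NK gates used Cd3d, Cd3e, Cd3g, Ncr1 and Klrb1c, and left out cells with Cd79a, Cd79b or Ms4a1.

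UMI sums per library were tested with edgeR 4.0.16 (R 4.3.3; TMM, filterByExpr, quasi-likelihood test, Benjamini-Hochberg over all genes, threshold 0.05) over 2 injured against 2 homeostatic libraries, and over 2 lymphoid against 2 other sums of total muscle, without gate genes. The dispersion gave a biological coefficient of variation of 11.3% and 8.82%. DESeq2 1.42.0 was an alternative. The edgeR test was also run on counts simulated from the measured means and a common dispersion for all genes. Its outcome is not given, and no result here rests on it. For 1 library, Poisson intervals of 95% and exact binomial shares are given, and a count of 0 is set at a floor of 3 counts. Cells were thinned to 10000 UMIs with a fixed seed. From each list the genes passing a test were named, up to 4 by mean CPM, or else the 2 highest. The T cell list had 7 genes, of which 5 are in the files. Likeness was the Pearson correlation over genes in at least 1% of cells. Promoter windows are from RefSeq (GRCm38.p6), and the 6 symbols and those of Gzmf and Gzmg matched. The 2 lymphoid and 2 other sums are paired by their library, and the correlation of their deviations was 0.062.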

Additional observations from a re-analysis of the deposited data

How the results depend on the processing

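In all, 128 values were recomputed under the alternatives, and no member lost its call. No ratio of Myog-high to Myog-low cells and no log2 fold change of Gzma or Gzmb reversed. The other values could not reverse, being levels, counts of genes called, or the bound on Mcpt8, which had no homeostatic count. Of the 128 values, 14 moved. Of these, 11 are ratios of Myog-high to Myog-low cells that left the counting interval. The other 3 are counts of genes that changed by over 1.5 times. The lower bound on Mcpt8 after injury, 15.7-fold, was 7.53-fold and 8.21-fold without 1 homeostatic library each. The ratio of Myog-high to Myog-low cells moved with the Myog threshold. At 2 or more UMIs it was 0.619 for Mcpt8, 0.564 for Gzmd and 0.564 for Gzme. At 10 or more it was 0.279 for Mcpt8, 0.260 for Gzmd and 0.257 for Gzme. Thinned to 5000 UMIs it was 0.318 for Mcpt8 and 0.272 for Gzme, with no thinning 0.319 for Mcpt8 and 0.309 for Gzmd, and over all deposited barcodes 0.305 for Gzmd. The cause was not tested. Genes called higher in lymphoid-gated cells, 2169 with all 4 sums, numbered 1241 to 1853 when 1 sum was left out. Without the other cells of library 1 they were 1266 of 3043 genes called, and without those of library 2 they were 1241 of 2996, against 4739 called with all sums; fewer genes were tested there. Genes called lower, 2570 with gates, numbered 4038 with T- or NK-like clusters. With the replicate block, 8008 genes were called between injured and homeostatic cells (Mcpt8 adjusted p = 4.38e-06) and 4500 between lymphoid and other cells (log2 5.11 for Gzma and 5.51 for Gzmb), and the block changed no call of a member. Injured and homeostatic libraries share only a number, with a correlation of deviations of -0.029. Without TMM scaling the median log2 change of all genes moved to -0.26, against 0.03 with it, in injured against homeostatic cells. NK against T cells could not be tested, with 3 NK-gated cells in 1 library. Leaving out a whole total muscle library leaves no residual degrees of freedom, so single sums were left out. Low depth of the homeostatic libraries limits the bound on Mcpt8, and for Gzmb and Gzmc in Myog-high cells counts are too few for a ratio of use.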

Other observations

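A single barcode of the second total muscle library held 98 of the 99 Mcpt4 UMIs counted over both total muscle libraries. Out of the same joint totals, it held 48 of 63 Cma1, 85 of 88 Tpsb2, 34 of 38 Cpa3, 15 of 71 Hdc and 2 of 41 Kit UMIs. These are genes of mast cell granules and their markers. The same barcode held 0 Mcpt8 and 0 Gzmb UMIs.

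The barcodes that failed the cell filters carried the members too. The 25 barcodes left out of the myoblast library held 345 Mcpt8, 177 Gzme and 95 Gzmd UMIs. Those left out of the injured libraries held 1 and 5 Mcpt8 UMIs, and those left out of the homeostatic and total muscle libraries none.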
